A study of Mus musculus with 24 samples.

Results

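The platelet-derived growth factor (Pdgf) and fibroblast growth factor (Fgf) genes described here are 3 Pdgf ligands (Pdgfa, Pdgfc and Pdgfd), 2 Pdgf receptors (Pdgfra and Pdgfrb), 2 Fgf ligands (Fgf2 and Fgf7) and 3 Fgf receptors (Fgfr1, Fgfr2 and Fgfr3). They were taken as a named set, 10 of the 22282 mouse genes in the RNA-seq files, and the value of each gene is the sum of its RefSeq transcripts. Values are FPKM (fragments per kilobase of transcript, scaled per library, here with upper-quartile normalization). They take transcript length into account, so that levels of different genes can be set side by side. All 10 genes had a mean FPKM of at least 1 over the 24 libraries and were tested. The means ran from 9.79 FPKM for Fgfr3 to 204 FPKM for Fgfr1.

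The study asked whether amniotic cells given endothelial transcription factors become endothelial, and what constitutively active Akt or Sox17 adds. It sequenced 8 groups of mouse C57BL/6J cells with 3 libraries each. By the methods the mice that gave amniotic cells were wild type or carried a tdTomato reporter. The paper describes the lung and liver endothelium as adult. MAC are adherent mouse amniotic fluid cells pooled from litters at E11.5 to E13.5 and grown in amniotic cell medium. RACVEC are MAC transduced with lentiviruses for the Ets factors Etv2, Erg and Fli1. They were grown in endothelial medium with a TGF-β receptor inhibitor, and with VEGF-A during conversion. The factors, the medium, VEGF-A, the inhibitor and the time in culture all separate RACVEC from MAC and cannot be told apart. Akt-MAC and Akt-RACVEC additionally received a lentivirus for constitutively active, myristoylated Akt, and Sox17-RACVEC are RACVEC with a Sox17 lentivirus and no Akt. Akt-LEC and Akt-liver EC are lung and liver endothelial cells isolated on CD31 beads, cultured with the same Akt and sorted again on VEcad and CD31, whereas LSEC are liver endothelial cells sorted straight from the animal, with no culture and no Akt. The methods count a separately isolated MAC culture as a biological replicate, but the labels do not tie libraries to isolates or, for LSEC and the organ endothelia, to animals, so every p-value below measures the spread between these libraries. The file header of RACVEC 3 names Flk1, GFP+ and D65, which those of the other RACVEC libraries do not.

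Pdgf and Fgf ligands bind receptor tyrosine kinases that signal through adaptors to the Ras-MAPK and PI3K-Akt pathways. Pdgfra and Pdgfrb are classically receptors of mesenchymal cells, with Pdgfrb a marker of the mural cells that wrap vessels, and endothelial Pdgf draws such cells to growing vessels. Fgf2 is an endothelial mitogen held on heparan sulfate, Fgf7 is made by stromal cells and signals to an epithelial form of Fgfr2, and Fgfr1 is the Fgf receptor best known from endothelial cells.

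Labels and markers were set beside each other first. Etv2 was listed at 0 in every library of LSEC, of both organ endothelia in culture, and of MAC and Akt-MAC, and lay between 127 and 860 FPKM in the RACVEC and Akt-RACVEC libraries. The library labelled Sox17-RACVEC 2 differed from the rest of its group. Etv2 was listed at 0 there, beside 458 and 378 FPKM in the other Sox17-RACVEC libraries. Erg was 387 FPKM there, beside 4.49 and a listed 0. The Etv2 value went against its label, while Sox17 was 40.1 FPKM in this library. Erg is a delivered factor too, but its level there was far above that of the RACVEC libraries. Akt1 was 1323 FPKM there, beside 884 and 916 FPKM in the rest of the group. It was 607 to 694 FPKM in RACVEC and 872 to 1280 FPKM in Akt-RACVEC. Whether the label is right was not tested. Erg was 0.9 to 13.8 FPKM in RACVEC and 395 to 1002 FPKM in Akt-RACVEC, and Sox17 was listed at 0 in all 3 RACVEC libraries against 5.09 to 200 FPKM in Sox17-RACVEC. The summed level of 10 endothelial markers was 41.1 to 95.4 FPKM in MAC and Akt-MAC, 2224 to 4591 FPKM in RACVEC and 5844 to 23112 FPKM in the other 5 groups. Markers of other cells were present too. A list of 8 fibroblast genes summed to 2556 to 9787 FPKM in MAC and 2840 to 6810 FPKM in RACVEC, but to at most 172 FPKM in Akt-RACVEC and 367 FPKM in Sox17-RACVEC. Akt-LEC 1 stood apart from its group, with 3892 FPKM of these genes where another Akt-LEC library had 30.1. Of 6 macrophage genes the sum was 811 to 35491 FPKM in Akt-MAC and 11722 to 18837 FPKM in LSEC, and 8 of 8 hepatocyte genes reached 10 FPKM in every LSEC library. A value of 0 can be a failed estimate in these files, since 53 of the 660 genes with a mean of at least 500 FPKM were at 0 in 1 or more libraries, so such values are given only as listed. In bulk RNA, fewer cells of a type and less RNA per cell cannot be told apart.

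Among the ligands, Pdgfa, which forms a dimer that acts through Pdgfra, was read at mouse chromosome 5, 139451968 to 139473324 (mm9, minus strand). Its level was 82.7, 39.7 and 403 FPKM in MAC, against 13.02, 7.32 and 11.48 FPKM in RACVEC. Every RACVEC library lay below every MAC library. The fitted log2 fold change, on the scale log2(FPKM + 1), was -3.30 with a standard error of 1.26, and it missed the threshold (limma, adjusted p = 0.158). In Akt-MAC Pdgfa was 442, 211 and 82.5 FPKM and in Akt-RACVEC 31.4, 22.4 and 32.8 FPKM, again with no overlap (log2 fold change -2.75, standard error 1.26, limma adjusted p = 0.120). All 3 Akt-RACVEC libraries were above all 3 RACVEC libraries (mean 28.9 ± 5.64 against 10.6 ± 2.95 FPKM, SD, n = 3), and so were the 18.8, 111 and 26.1 FPKM of Sox17-RACVEC. Neither difference passed the test (limma, adjusted p = 0.654 with Akt and 0.877 with Sox17). Akt-LEC held 44.5, 14.2 and 75.2 FPKM, Akt-liver EC 174, 16.1 and a listed 0, and LSEC 6.49, 9.92 and 7.78 FPKM. By median, Pdgfa was lowest in LSEC and RACVEC and highest in Akt-MAC and MAC.

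Pdgfc, a ligand that needs its CUB domain removed before it binds Pdgfra (chromosome 3, 80840338 to 81017962), was found in all 24 libraries. It was 121, 24.8 and 33.8 FPKM in MAC and 29.4, 151 and 53.6 FPKM in RACVEC, ranges that overlap throughout. With Akt the values were 62.4, 60.3 and 128 FPKM in Akt-MAC and 25.2, 9.23 and 109 FPKM in Akt-RACVEC. The cultured organ endothelium was lower, at 9.42, 4.71 and 6.69 FPKM in Akt-LEC and 15.1, 5.68 and 0.55 FPKM in Akt-liver EC, with LSEC at 26.9, 21.3 and 10.8 FPKM. Akt-LEC against Akt-RACVEC gave a log2 fold change of -2.00 with a standard error of 0.918, with overlap between the groups, and missed the threshold (limma, unadjusted p = 0.0422, adjusted p = 0.553). In Sox17-RACVEC Pdgfc was 7.74, 49.8 and 12.4 FPKM, the highest being the library labelled Sox17-RACVEC 2, and its log2 fold change against RACVEC was -1.80 with all libraries and -2.55 without that one (limma, adjusted p = 0.774 and 0.755).

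Pdgfd, a related latent ligand that acts through Pdgfrb (chromosome 9, 6168612 to 6378843), reached 10 FPKM in every library, as did Fgfr1. MAC held 488, 14.0 and 50.8 FPKM and RACVEC 18.7, 63.9 and 43.9 FPKM. Sox17-RACVEC held 241, 37.6 and 360 FPKM, where the library labelled Sox17-RACVEC 2 was the low one and sat within the RACVEC range. The log2 fold change over RACVEC was 1.96 with a standard error of 1.12, and 2.94 with a standard error of 1.18 without that library (limma, adjusted p = 0.831 and 0.780). Akt-MAC lay at 111, 131 and 21.9 FPKM, Akt-RACVEC at 44.6, 73.7 and 17.3 FPKM, and Akt-LEC at 29.5, 11.47 and 135 FPKM. Akt-liver EC, at 76.7, 20.2 and 28.7 FPKM, was below LSEC at 151, 100 and 152 FPKM in every library, with a log2 fold change of -1.86 that missed the threshold (standard error 1.12, limma adjusted p = 0.213).

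Fgf2 (chromosome 3, 37247268 to 37304299) was 263, 19.8 and 11.1 FPKM in MAC and 85.4, 73.6 and 52.1 FPKM in Akt-MAC. It was 21.2, 4.27 and 4.47 FPKM in RACVEC, and 7.03, 0 and 0 in Akt-RACVEC. The 3 Akt-MAC libraries all exceeded the 3 Akt-RACVEC libraries, and this difference was called (log2 fold change -5.13, standard error 1.55, limma adjusted p = 0.0235). The call rested on few libraries, since leaving out any 1 of Akt-MAC 1, Akt-MAC 2, Akt-RACVEC 2 or Akt-RACVEC 3 ended it. Without Akt-MAC 2 and Akt-MAC 3, the Akt-MAC libraries richest in macrophage genes (10914 and 35491 FPKM against 811 in Akt-MAC 1), the value was -5.43, which sets the single remaining Akt-MAC library against Akt-RACVEC. Its adjusted p of 0.191 assumes that this library varies like the other groups. Sox17-RACVEC held 4.34, 0 and 10 FPKM, Akt-LEC 91.3, 0 and 0, Akt-liver EC 14.4, 0 and 0, and LSEC was listed at 0 throughout. In each of the cultured organ endothelia Fgf2 came from library 1 alone.

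Fgf7 (chromosome 2, 125860394 to 125916921) had the highest single value of the 10 genes, 1053 FPKM in MAC 2. MAC held 342, 1053 and 281 FPKM and RACVEC kept a similar range, 691, 191 and 367 FPKM (log2 fold change -0.35, standard error 2.18, limma adjusted p = 0.981). Akt-MAC held 487, 36.8 and 20.1 FPKM, and Akt-RACVEC 397, 98.5 and 1.11 FPKM. Sox17-RACVEC held 28.7, 1.34 and 53.8 FPKM, all below all RACVEC libraries. That log2 fold change was -4.55 with a standard error of 2.18 and missed the threshold (limma, unadjusted p = 0.0511, adjusted p = 0.754), and without the library labelled Sox17-RACVEC 2 it was -3.18 (adjusted p = 0.981). Akt-LEC held 461, 0.32 and 0 FPKM, Akt-liver EC 139, 0.86 and 1.65 FPKM, and LSEC was listed at 0 in all 3 libraries, so no fold is given against it.

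**Figure D1:**
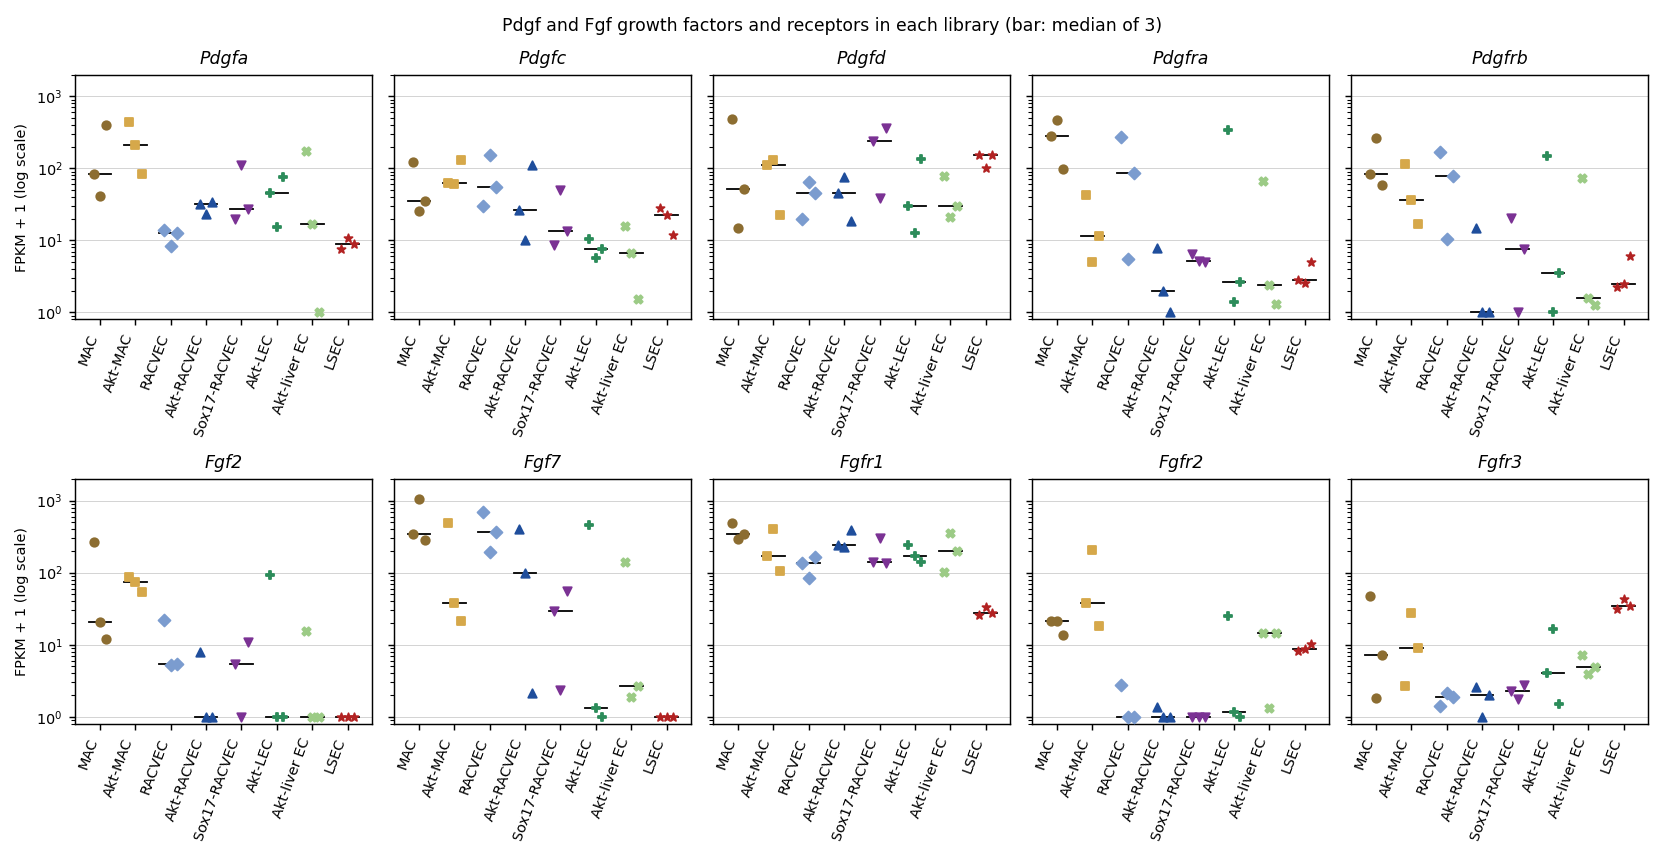
FPKM of each of the 10 Pdgf and Fgf genes (1 panel a gene, log scale of FPKM + 1) in the 24 libraries of the 8 groups, with 1 point a library. Fgfr1 lay between 84.3 and 482 FPKM in every cultured library and between 25.2 and 31.9 FPKM in LSEC, while Pdgfra, Pdgfrb, Fgf2 and Fgf7 spread widely within groups, with library 1 of Akt-LEC and of Akt-liver EC far above the other 2.

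The Pdgf receptors came next. Pdgfra (chromosome 5, 75548316 to 75594229), the receptor for Pdgfa and Pdgfc, was 279, 473 and 96.0 FPKM in MAC and 41.5, 4.04 and 10.6 FPKM in Akt-MAC. The groups did not overlap, but the log2 fold change of -4.12 missed the threshold (standard error 1.77, limma unadjusted p = 0.0316, adjusted p = 0.285). Akt-MAC also carried macrophage genes, with 4 or 5 of 6 at 10 FPKM or more and Clec4f listed at 0, against a sum of 0.79 to 14.7 FPKM in MAC, and with Akt-MAC 1 as the only Akt-MAC library the fold change was -2.46. The part of macrophages in it was not tested. RACVEC spread widely, at 271, 4.47 and 85.5 FPKM, and Akt-RACVEC held 6.94, 0.99 and a listed 0. Sox17-RACVEC were uniformly low, at 4.55 ± 0.773 FPKM (SD, n = 3; 5.43, 4.26 and 3.97), but overlapped RACVEC through its library 2 at 4.47 FPKM. Neither Akt nor Sox17 gave a called difference from RACVEC (log2 fold change -4.33 with adjusted p = 0.237, and -3.19 with adjusted p = 0.820, limma, standard error 1.77 in each). Without RACVEC 3, the library with the differing header, they were -3.94 and -2.81 and not called either, and no member was called between RACVEC and MAC without it. Akt-LEC held 343, 0.39 and 1.66 FPKM, Akt-liver EC 66.0, 1.39 and 0.31 FPKM, and LSEC 1.81, 1.56 and 4.05 FPKM.

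Pdgfrb, the receptor of mural cells, was broadly high and low where Pdgfra was. The order of libraries within a group was not always shared, with libraries 2 and 3 reversed in Akt-MAC and Sox17-RACVEC. It was 82.7, 265 and 57.9 FPKM in MAC and 170, 9.45 and 78.4 FPKM in RACVEC. With Akt it was 113, 35.8 and 15.9 FPKM in Akt-MAC and 13.9, 0 and 0 in Akt-RACVEC, which lay below all Akt-MAC libraries (log2 fold change -4.07, standard error 1.77, limma adjusted p = 0.102). Sox17-RACVEC held 19.3, 0 and 6.61 FPKM, Akt-LEC 147, 0 and 2.52 FPKM, Akt-liver EC 73.2, 0.59 and 0.27 FPKM, and LSEC 1.27, 1.52 and 5.04 FPKM. The low values in LSEC stood beside a summed level of 585 to 826 FPKM for 10 mural markers, of which Cspg4 was listed at 0 and 6 or 7 reached 10 FPKM. Mcam alone held 620, 563 and 311 FPKM of that sum.

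The high receptor values coincided with fibroblast genes in part of the groups. Col1a1, the main collagen of fibroblasts, was 1065 FPKM in Akt-LEC 1 against 0 and 1.44 in the other Akt-LEC libraries, and 556 FPKM in Akt-liver EC 1 against 5.66 and 1.14. In RACVEC Col1a1 was 1121, 184 and 1254 FPKM, so that library 2 was lowest for Col1a1, Pdgfra and Pdgfrb alike. Akt-MAC did not follow this, with Col1a1 at 556, 271 and 971 FPKM but Pdgfra at 41.5, 4.04 and 10.6 FPKM. Pdgfrb was lowest there in library 3, at 15.9 FPKM, where Col1a1 was highest. The fibroblast list was not uniform, since Dcn, decorin, was 688, 1637 and 502 FPKM in RACVEC, highest in library 2, and 234, 98.4 and 391 FPKM in Akt-liver EC, highest in library 3. Lum, also on the list, was 175, 476 and 51.1 FPKM in RACVEC, again highest in library 2. Akt-RACVEC held 19.2, 1.35 and 0.31 FPKM of Col1a1, and there Fgf7 was still 397 and 98.5 FPKM in libraries 1 and 2. Summed fibroblast levels in Akt-liver EC were 2030 to 2736 FPKM, but in libraries 2 and 3 the sum was mostly Thy1, at 2212 and 2316 FPKM. Epithelial genes also moved with library 1, whose sum was 1648 FPKM in Akt-liver EC against 10.5 in the lowest library of that group, and the mural sum in Akt-liver EC ran from 55.6 to 2067 FPKM. Macrophage genes did so as well, at 1313 FPKM in Akt-LEC 1 against 2.09 and 18.6 and at 967 FPKM in Akt-liver EC 1 against 2.19 and 0. With Akt-LEC 1 and Akt-liver EC 1 left out, the Akt-LEC against Akt-RACVEC log2 fold change of Pdgfra turned from 2.11 to -0.38, that of Pdgfrb from 1.71 to -0.39 and that of Fgf2 from 1.17 to -1.0, none of them called in either fit. Against LSEC, Akt-liver EC turned from 0.84 to -0.90 for Pdgfra, from 0.71 to -1.20 for Pdgfrb and from 0.69 to -1.11 for Pdgfa. The part of fibroblast, mural, epithelial or macrophage cells in these values was not tested.

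Over the 24 libraries, which share groups and cultures, the Pearson correlation of log2(FPKM + 1) between Pdgfra and Pdgfrb was 0.92, the highest of the 45 pairs of the 10 genes. The other pairs at or above 0.7 were Pdgfrb with Fgf2 (0.85), Pdgfrb with Fgf7 (0.84), Pdgfra with Fgf7 (0.80), Fgf2 with Fgf7 (0.76) and Pdgfra with Fgf2 (0.75). All 6 pairs fell among Pdgfra, Pdgfrb, Fgf2 and Fgf7, and the median over the 45 pairs was 0.34. Among 11699 genes with a mean of at least 10 FPKM, those most like Pdgfrb were Loxl1 (0.960) and Col6a2 (0.955), an elastin cross-linking enzyme and a collagen VI chain. Those most like Fgf7 were Mrc2 (0.967), a collagen uptake receptor, and Nfatc4 (0.908), those most like Pdgfra were Kcne4 (0.947) and Ptgir (0.931), and those most like Fgf2 were F3 (0.903), tissue factor, and Vcan (0.899), versican. For the other genes the highest values were 0.859 for Pdgfa (with Myl6b), 0.772 for Pdgfc (Gzf1), 0.720 for Pdgfd (Ppp5c), 0.912 for Fgfr1 (Mypop) and 0.909 for Fgfr2 (Tom1l1). These are descriptions of 24 libraries that fall into few groups.

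**Figure D2:**
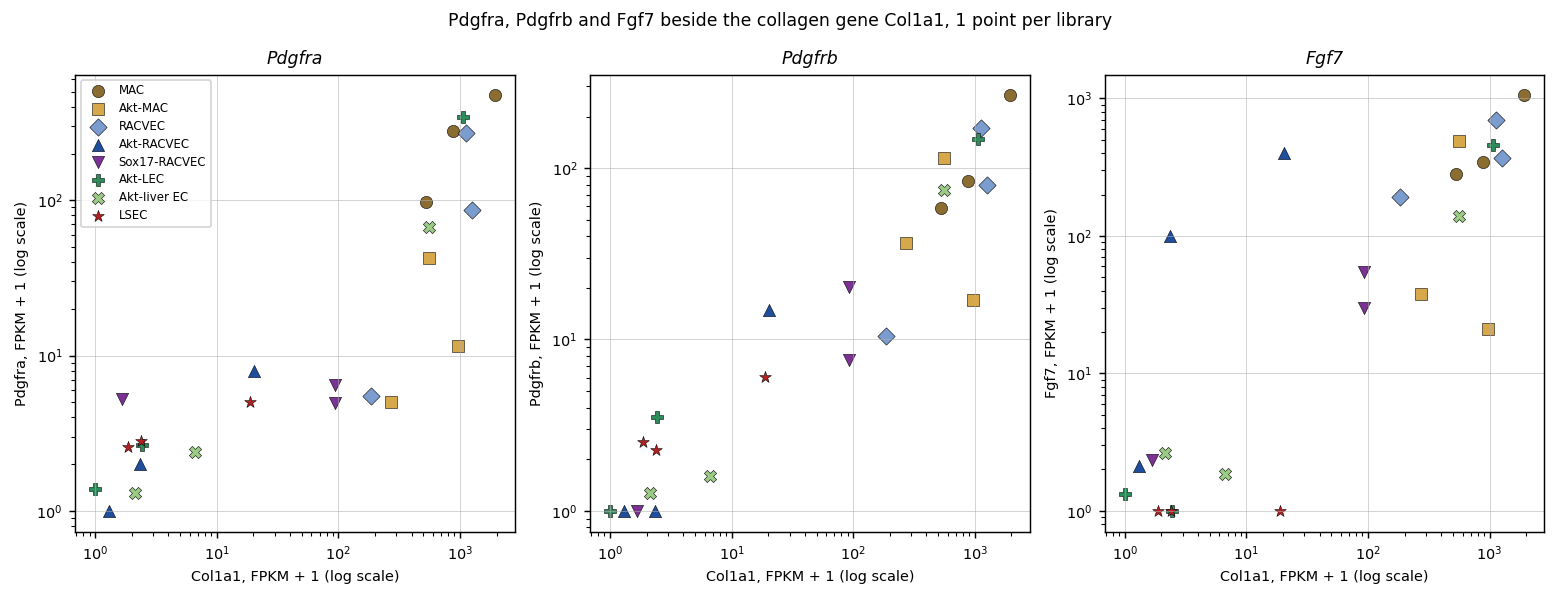
Pdgfra, Pdgfrb and Fgf7 (vertical axes, log scale of FPKM + 1) against the fibroblast collagen gene Col1a1 (horizontal axis, same scale) in the 24 libraries, coloured by group. Akt-LEC 1 (Col1a1 1065 FPKM) and Akt-liver EC 1 (556 FPKM) lie with the MAC and RACVEC libraries, apart from the other libraries of their groups, and Akt-RACVEC 1 shows Fgf7 at 397 FPKM with Col1a1 at 19.2 FPKM.

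The converting factors are Ets proteins, whose shared core is GGAA, so the 250 bases before the start of 4 genes are shown: Pdgfra, Fgf7 and Fgf2, which moved together over the libraries, and Fgfr2, lower in the converted cells. They are RefSeq promoters of GRCm38.p6, given 5′ to 3′ on the strand of the gene, for Pdgfra (chr5:75152001-75152250), Fgf7 (chr2:126034408-126034657), Fgf2 (chr3:37348403-37348652) and Fgfr2 (chr7:130266809-130267058, minus strand). Capitals mark GGAA or its reverse complement TTCC.
Pdgfra: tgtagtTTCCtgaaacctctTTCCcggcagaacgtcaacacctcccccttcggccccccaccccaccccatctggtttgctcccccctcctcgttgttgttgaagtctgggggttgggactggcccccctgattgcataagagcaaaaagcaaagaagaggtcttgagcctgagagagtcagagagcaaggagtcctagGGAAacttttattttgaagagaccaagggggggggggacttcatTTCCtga
Fgf7: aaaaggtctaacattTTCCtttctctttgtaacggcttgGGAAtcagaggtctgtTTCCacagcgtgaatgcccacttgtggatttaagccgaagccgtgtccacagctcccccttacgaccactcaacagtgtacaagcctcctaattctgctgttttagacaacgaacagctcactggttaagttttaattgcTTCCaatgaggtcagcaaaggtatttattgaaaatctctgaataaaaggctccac
Fgf2: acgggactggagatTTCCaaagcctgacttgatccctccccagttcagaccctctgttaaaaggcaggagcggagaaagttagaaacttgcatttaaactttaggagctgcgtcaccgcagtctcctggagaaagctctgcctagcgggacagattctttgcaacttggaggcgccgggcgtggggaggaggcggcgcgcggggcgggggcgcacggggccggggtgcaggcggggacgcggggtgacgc
Fgfr2: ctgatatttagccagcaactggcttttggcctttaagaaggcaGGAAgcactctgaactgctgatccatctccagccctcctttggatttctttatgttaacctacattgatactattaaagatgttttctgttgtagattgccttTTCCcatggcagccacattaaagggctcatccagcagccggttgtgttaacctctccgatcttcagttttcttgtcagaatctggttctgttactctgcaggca
The core was found 4 times for Pdgfra, 4 times for Fgf7, 1 time for Fgf2 and 2 times for Fgfr2. It is so short that 93.4% of 32851 promoter windows of this length hold it, with a median of 3 matches, so these counts do not set the 4 genes apart. The Sox-type letters ACAAT, searched on both strands, were in none of the 4 windows and in 27.7% of all windows. A match is a run of letters and not a bound site, and no binding data were used here.

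The Fgf receptors behaved differently from the Pdgf receptors. Fgfr1 (chromosome 8, 26624126 to 26686186) was abundant in every culture. It was 482, 289 and 339 FPKM in MAC (370 ± 99.8, SD, n = 3) and 135, 84.3 and 163 FPKM in RACVEC (127 ± 39.8). All RACVEC libraries were below all MAC libraries, with a log2 fold change of -1.55 that missed the threshold (standard error 0.471, limma adjusted p = 0.0834). Akt-RACVEC stood above RACVEC without overlap, at 240, 227 and 392 FPKM (log2 fold change 1.17, standard error 0.471, limma unadjusted p = 0.0228, adjusted p = 0.231). Akt-MAC, at 167, 404 and 105 FPKM, did not stand above MAC (log2 fold change -0.91, standard error 0.471, adjusted p = 0.416). The difference between these responses to Akt was 2.08 with a standard error of 0.666 and was not called (limma interaction, unadjusted p = 0.00576, adjusted p = 0.193). Sox17-RACVEC held 138, 302 and 136 FPKM, of which only the library labelled Sox17-RACVEC 2 was above the RACVEC range.

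Fgfr1 separated cultured from freshly sorted liver endothelium. LSEC held 25.2, 31.9 and 26.9 FPKM (28.0 ± 3.48, SD, n = 3) and Akt-liver EC 99.6, 349 and 200 FPKM (216 ± 126). Every Akt-liver EC library lay above every LSEC library, and the difference was called (log2 fold change 2.74, standard error 0.471, limma adjusted p = 0.000222). It was also called without Akt-LEC 1 and Akt-liver EC 1 (3.20, adjusted p = 9.87e-05), but it did not meet a criterion of an unadjusted p below 0.05 and a 2-fold difference of averaged FPKM. Culture, Akt and the second sort all separate these groups and cannot be told apart. Markers of other liver cells moved with them, with macrophage genes at 11722 to 18837 FPKM in LSEC against 0 to 967 FPKM in Akt-liver EC (6 of 6 called lower) and hepatocyte genes at 3205 to 15022 FPKM against 54.5 to 572 FPKM (7 of 8 called lower), and their part in Fgfr1 was not tested. Ordered by median, the 8 groups ran from MAC to LSEC with overlapping neighbours, except that LSEC was apart from RACVEC, the next group up. Akt-LEC was 243, 171 and 137 FPKM, within the range of the converted cells.

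Fgfr2 (chromosome 7, 137307223 to 137410322, minus strand) was low or listed at 0 in the converted cells. It was 20.3, 20.0 and 12.5 FPKM in MAC (17.6 ± 4.42, SD, n = 3) and 36.6, 205 and 17.3 FPKM in Akt-MAC. In RACVEC it was 1.78, 0 and 0, in Akt-RACVEC 0.35, 0 and 0, and in Sox17-RACVEC it was listed at 0 throughout. All converted libraries thus lay below all amniotic ones. With Akt the difference was called (Akt-RACVEC against Akt-MAC, log2 fold change -5.56, standard error 1.06, limma adjusted p = 0.00168), and each of the 6 fits that left out 1 library called it too, while a fit with a replicate block (adjusted p = 0.109) and the unadjusted criterion on averaged FPKM did not. Without Akt it was -3.70 with a standard error of 1.06 and missed the threshold (limma, adjusted p = 0.0676). Akt-LEC held 23.7, 0.15 and 0 FPKM, Akt-liver EC 13.6, 0.33 and 13.4 FPKM, and LSEC 7.18, 7.73 and 9.13 FPKM. Akt-MAC 2, with the most Fgfr2, is 1 of the 2 libraries left out for macrophage genes, and without them the value was -5.09, with Akt-MAC 1 as the only Akt-MAC library.

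Fgfr3 (chromosome 5, 34064373 to 34079716) was highest in LSEC, at 29.9, 41.7 and 33.4 FPKM (35.0 ± 6.04, SD, n = 3). Akt-liver EC held 6.3, 2.91 and 3.93 FPKM (4.38 ± 1.74), below every LSEC library, and the difference was called (log2 fold change -2.78, standard error 0.966, limma adjusted p = 0.0322). The call was lost in 5 of the 6 fits that left out 1 library, all except the fit without Akt-liver EC 1, with adjusted p between 0.0645 and 0.0890, and in the fit without both Akt-LEC 1 and Akt-liver EC 1 (-3.02, adjusted p = 0.0527). Beside the hepatocyte and macrophage genes, LSEC had a higher sum of 8 stellate cell genes, 1147 to 1758 FPKM against 475 to 924 FPKM in Akt-liver EC. Of these 8, 3 were called lower in Akt-liver EC (Lrat, listed at 0 there, Colec11 and Hgf), where 27.0% of all genes were called. Reln went the other way, at 14.8, 137 and 10.2 FPKM in Akt-liver EC against 8.26, 8.36 and 12.6 FPKM in LSEC. The part of those cells in Fgfr3 was not tested. MAC held 46.1, 0.81 and 6.14 FPKM, Akt-MAC 1.7, 26.4 and 7.9 FPKM, RACVEC 0.4, 1.13 and 0.86 FPKM, Akt-RACVEC 1.56, 0 and 1.02 FPKM, and Sox17-RACVEC 1.27, 0.77 and 1.77 FPKM. The converted cells were low, but MAC 2 lay within their range (RACVEC against MAC, log2 fold change -2.26, standard error 0.966, limma adjusted p = 0.205). Akt-LEC held 3.03, 15.3 and 0.52 FPKM. The genes most like Fgfr3 over the 24 libraries were Gsta3 (r = 0.885), a glutathione transferase, and Gpr155 (0.860).

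The makeup of the Fgf receptors therefore differed between LSEC, the only freshly sorted group, and the cultured groups. LSEC come from liver and carried hepatocyte and macrophage genes, and the part of those cells in the shares was not tested. Fgfr1 was 38.7 to 40.4% of the summed Fgfr1, Fgfr2 and Fgfr3 FPKM in LSEC and Fgfr3 48.1 to 51.3%. In RACVEC, Akt-RACVEC and Sox17-RACVEC Fgfr1 was 98.4 to 100% of the sum. It was 87.9 to 94.8% in MAC and 63.5 to 81.4% in Akt-MAC, where Fgfr2 took a larger share. The sum itself was 62.3 to 81.3 FPKM in LSEC and 85.4 FPKM or more in every other library, so a share says nothing of the level alone.

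**Figure D3:**
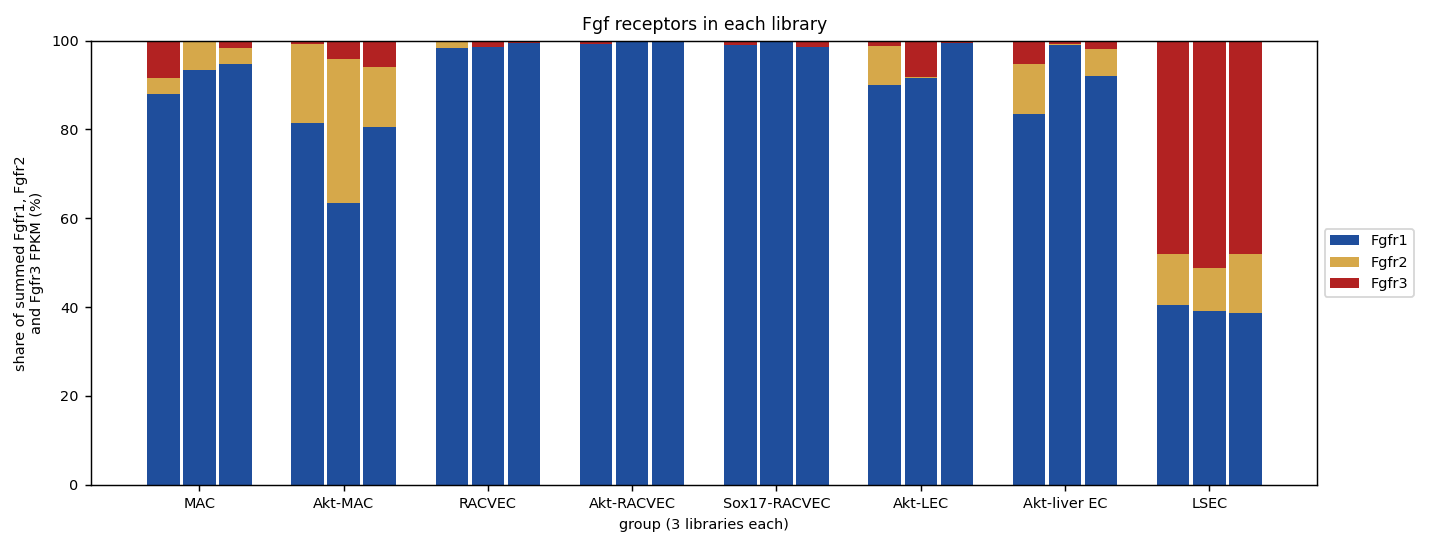
Share of Fgfr1, Fgfr2 and Fgfr3 in their summed FPKM (vertical axis, percent) for each of the 24 libraries, stacked to 100% and ordered by group. Fgfr1 fills 98.4 to 100% of the bars of RACVEC, Akt-RACVEC and Sox17-RACVEC and 38.7 to 40.4% of those of LSEC, where Fgfr3 fills 48.1 to 51.3%.

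With transcripts kept apart, the 4 called differences were called again, and 1 Fgfr1 transcript in addition. Fgfr1 was read as 3 RefSeq transcripts, NM_001079909 with 45.6% of its FPKM over all libraries, NM_001079908 with 31.8% and NM_010206 with 22.6%. All 3 were higher in Akt-liver EC than in LSEC (log2 fold change 2.17, 2.63 and 3.93, limma over 18506 transcripts, adjusted p = 0.00275, 0.00129 and 5.10e-05). NM_001079909 was 55.9 to 63.9% of Fgfr1 in Sox17-RACVEC and 19.2 to 33.5% in Akt-MAC. It was the 1 Fgfr1 transcript called between Akt-RACVEC and Akt-MAC, where it was higher (log2 fold change 1.45, standard error 0.495, limma adjusted p = 0.0447), although summed Fgfr1 was not called there (0.53, adjusted p = 0.448). Both Fgfr2 transcripts, NM_010207 with 77.5% of the gene's FPKM and NM_201601 with 22.5%, were lower in Akt-RACVEC than in Akt-MAC (-5.21 and -3.70, limma adjusted p = 0.00204 and 0.00558). Of the 5 Fgfr3 transcripts, 3 were called lower in Akt-liver EC than in LSEC, with NM_001163216 the most changed (-3.09, limma adjusted p = 0.0132). How transcripts of 1 gene share reads is an estimate of the quantifier, so these splits are less certain than the sums.

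Counted over the set, the comparisons read as follows, where a call needs a log2 fold change above 1 or below -1 together with a limma adjusted p under 0.05. They share groups (RACVEC enters 3 pairwise comparisons, as does Akt-RACVEC, and both enter the interaction) and are not independent of each other. Between RACVEC and MAC 0 of the 10 genes were called, against 2.71% of all 14964 genes tested. At an unadjusted p below 0.05 with the same fold 4 of 10 were lower (Pdgfa, Fgfr1, Fgfr2 and Fgfr3) and none higher, where 12.6% of all genes passed, and by a criterion of an unadjusted p below 0.05 and a 2-fold difference of averaged FPKM 2 were lower (Fgfr1 and Fgfr2; 2.81% of all genes). The median log2 fold change of the set was -1.88 beside 0 over all genes tested. Between Akt-RACVEC and Akt-MAC 2 were called lower (Fgf2 and Fgfr2), a share of the set near the 19.5% of all genes called, 1 was lower by the criterion on averaged FPKM (Fgf2; 7.69% of all genes), and the medians were -2.38 and -0.0928.

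By limma no member was called with Akt against without it, in MAC or in RACVEC. Akt-MAC also carried macrophage genes (811 to 35491 FPKM against 0.79 to 14.7 FPKM in MAC), and their part was not tested. In Akt-MAC against MAC 0 of 10 were called by limma (2.81% of all genes), 1 was lower at the unadjusted p (Pdgfra; 9.72% of all genes) and 0 met the criterion on averaged FPKM (1.04%). In Akt-RACVEC against RACVEC 0 were called by limma (0.261%), 3 passed at the unadjusted p, with Fgfr1 higher and Pdgfra and Pdgfrb lower (10%), and 1, Pdgfa, was higher by the criterion on averaged FPKM (3.43%). The interaction that compares these responses called 0 of 10 by limma (0.10%) and had 1, Fgfr1, at the unadjusted p (10.1%). The median log2 fold change of the set was -0.69 for Akt in RACVEC and -0.00916 for Akt in MAC, beside 0 and 0.0868 over all genes.

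Sox17-RACVEC against RACVEC had 0 of 10 called by limma, where 0.00668% of all genes were, 0 at the unadjusted p (4.70%) and 0 by the criterion on averaged FPKM (0.982%). Without the library labelled Sox17-RACVEC 2 there were also 0, and 0.0601% of all genes. Akt-LEC against Akt-RACVEC had 0 called by limma (0.00668%), 1 lower at the unadjusted p (Pdgfc; 4.16%) and 0 by the criterion on averaged FPKM (0.815%). Akt-LEC against Akt-liver EC had 0 by limma (0.0134%), 0 at the unadjusted p (2.79%) and 0 by the other criterion (0.548%). Akt-liver EC against LSEC had 2 called, Fgfr1 higher and Fgfr3 lower, where 27.0% of all genes were called, while by the criterion on averaged FPKM 2 were lower, Pdgfd and Fgfr3, and Fgfr1 did not pass (18.1% of all genes). With 3 libraries a group and this spread, a difference that missed the threshold is not shown to be absent.

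**Figure D4:**
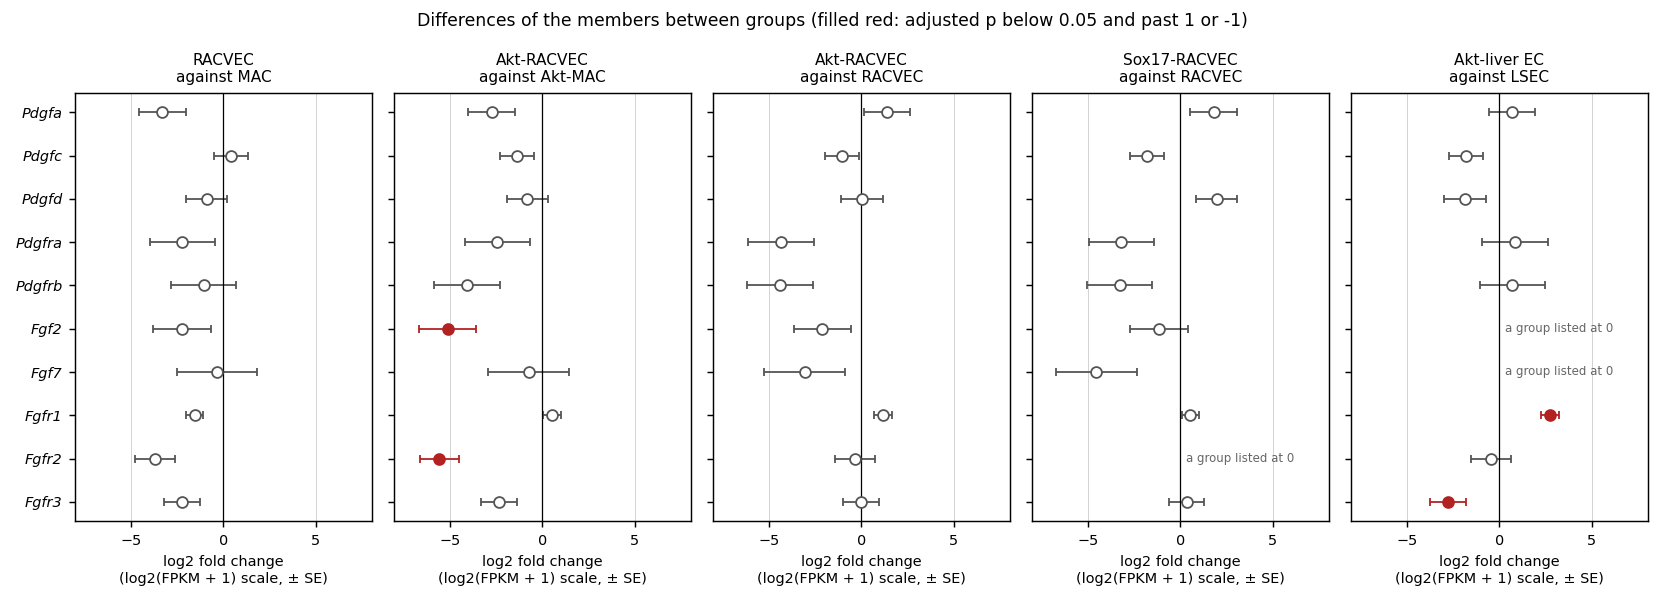
Log2 fold changes of the 10 genes (horizontal axis, log2(FPKM + 1) scale, with standard errors as bars) in 5 comparisons, with called differences in filled red and a note where a group was listed at 0 and no fold is drawn. The filled points are Fgf2 (-5.13) and Fgfr2 (-5.56) for Akt-RACVEC against Akt-MAC, and Fgfr1 (2.74) and Fgfr3 (-2.78) for Akt-liver EC against LSEC.

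The remaining ligands and receptors of both families were set beside the set. Of 21 other ligands 10 were tested, and 0 were called between RACVEC and MAC or after Akt or Sox17 in RACVEC. Pdgfb, the endothelial ligand that recruits mural cells through Pdgfrb, was 16.4, 0 and 37.1 FPKM in MAC and 64.8, 155 and 24.8 FPKM in RACVEC (log2 fold change 2.88, standard error 1.10, limma adjusted p = 0.159). It was 53.4, 316 and 307 FPKM in Akt-RACVEC, 309, 95.1 and 347 FPKM in Sox17-RACVEC, and 323, 79.8 and 142 FPKM in Akt-liver EC against 27.9, 33.7 and 20.5 FPKM in LSEC (log2 fold change 2.48, limma adjusted p = 0.0905). The 3 Akt-liver EC libraries lay above the 3 LSEC libraries, while the other groups overlapped in part. Fgf1, an Fgf that binds all Fgf receptors, was called lower in Akt-liver EC (3.68, 0.45 and a listed 0) than in LSEC (92.4, 69.7 and 62.3 FPKM; log2 fold change -5.30, standard error 1.21, limma adjusted p = 0.00246). Fgf12, an intracellular Fgf, was called higher there, at 8.21, 41.6 and 3.58 FPKM against a listed 0 in LSEC. Between Akt-RACVEC and Akt-MAC 6 of the 10 other ligands were called lower and 0 higher, where 19.5% of all genes were called, and Akt-MAC had 2 called higher than MAC, where 2.81% were. Macrophage genes moved with both counts (811 to 35491 FPKM in Akt-MAC, 0.79 to 14.7 in MAC and 5.35 to 153 in Akt-RACVEC), and their part was not tested. Fgfrl1, a receptor without a kinase domain, was the 1 of 3 other receptors tested that was called between Akt-liver EC (35.8, 34.7 and 44.5 FPKM) and LSEC (4.82, 4.93 and 7.72 FPKM; log2 fold change 2.54, limma adjusted p = 0.00486). Over all genes 27.0% were called there. Between Akt-RACVEC and Akt-MAC 2 of the 3 other receptors were called lower, Pdgfrl and Fgfrl1, and 0 higher, where 19.5% of all genes were called.

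Genes that release ligands or handle their heparan sulfate were called mostly between Akt-liver EC and LSEC, the comparison with the most calls over all genes. Of 13 tested, 6 were higher and 1 lower in Akt-liver EC, against 27.0% of all genes called in either direction. Sulf2, which trims 6-O-sulfates from heparan sulfate, was 193, 420 and 437 FPKM against 4.09, 3.26 and 3.84 FPKM (log2 fold change 6.13, standard error 0.658, limma adjusted p = 9.58e-07). Plat, a plasminogen activator that also cleaves latent Pdgfc, was 130, 500 and 1498 FPKM against 10.2, 4.97 and 9.13 FPKM (5.71, adjusted p = 0.000992). Hs6st2, a 6-O-sulfotransferase, was listed at 0 in all LSEC libraries and had a mean of 46.3 FPKM in Akt-liver EC. Between RACVEC and MAC, where 2.71% of all genes were called, 1 was called, Hs6st1. It was lower at 68.4, 35.4 and 45.3 FPKM against 328, 142 and 116 FPKM (-1.85, standard error 0.34, limma adjusted p = 0.00497). Between Akt-RACVEC and Akt-MAC 1 was higher, Plau, and 1 lower, Hs2st1, where 19.5% of all genes were called. After Akt or Sox17 in RACVEC 0 were called.

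Feedback genes and targets of the Ras-MAPK branch were counted in the same way. Of 15 tested, 5 were higher and 0 lower in Akt-liver EC than in LSEC, a share near the 27.0% of all genes called. Flrt3, a transmembrane partner of Fgfr1, was 24.8, 127 and 89.8 FPKM against 2.31, 1.97 and 3.93 FPKM (log2 fold change 4.2, standard error 1.02, limma adjusted p = 0.00378). Spred3, an inhibitor of Ras-MAPK signalling, was 58.8, 130 and 65.0 FPKM against 4.66, 7.01 and 5.61 FPKM (3.59, adjusted p = 3.17e-06), and Etv4, an Ets factor induced by Fgf, was 69.8, 137 and 129 FPKM against a listed 0. Between RACVEC and MAC, and after Akt or Sox17 in RACVEC, 0 of 15 were called. Between Akt-RACVEC and Akt-MAC 3 were lower (Spred1, Etv1 and Etv5) and 0 higher, a share near the 19.5% of all genes called.

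Of 14 adaptors and effectors, 4 were higher and 1 lower in Akt-liver EC than in LSEC, again near the 27.0% of all genes. The largest was Src, a kinase downstream of both families, at 68.0, 110 and 50.3 FPKM against 2.74, 3.1 and 2.93 FPKM (log2 fold change 4.22, standard error 0.523, limma adjusted p = 5.87e-06). Shc1, an adaptor of receptor kinases, was 1.58 higher (adjusted p = 0.000245) and Nck1, an adaptor of the actin cytoskeleton, 157, 224 and 182 FPKM against 644, 483 and 644 FPKM (-1.65, adjusted p = 0.00092). The list medians for RACVEC against MAC were -0.762 for other ligands, -1.27 for other receptors, -0.448 for ligand handling, -0.866 for feedback genes and -0.129 for adaptors. Those for Akt-liver EC against LSEC were 0.0515 for adaptors, 0.752 for feedback genes and 1.42 for ligand handling, beside 0.084 over all genes and 0.696 for the 10 genes. Between Akt-RACVEC and Akt-MAC 1 adaptor was higher, Plcg1, and 0 lower, where 19.5% of all genes were called. None of the 5 lists had a gene called in Akt-RACVEC or Sox17-RACVEC against RACVEC.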

How the data were processed

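Poly(A) RNA of 24 mouse libraries was sequenced as paired 51-base reads (TruSeq, Illumina HiSeq). The authors aligned reads to mm9 with TopHat and the deposited values are FPKM per RefSeq transcript from Cufflinks, with upper-quartile normalization and sequence bias correction. Versions, annotation release and read numbers are not given in the sources used here, so the depth is unknown and no counting interval is given. Upper-quartile scaling makes a level relative to the rest of its library.

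Of 27583 transcripts, 26930 carried a symbol and were summed to 22282 genes. Summed FPKM was 1689486 to 2317294 per library, with 12356 to 14985 genes above 0 and no identical libraries. Groups were taken from the sample titles. The 14964 genes with a mean of at least 1 FPKM were tested genome-wide as log2(FPKM + 1) in 1 limma fit (trend) over the 8 groups with 16 residual degrees of freedom (limma 3.58.1, R 4.3.3) and Benjamini-Hochberg adjustment. The fold changes understate changes of low genes. A call needed a log2 fold change above 1 or below -1 at an adjusted p under 0.05. The script was tested on simulated data for RACVEC against MAC. It called 38 of 100 genes given an absolute log2 fold change of 1.5, and 71 of 100 given 3. Among the unchanged genes 10 were called. Tables and plots used Python 3.11.15, numpy 2.4.6, pandas 2.3.3 and matplotlib 3.10.9.

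All 10 members were named. Other pathway genes were named as at most the 3 called genes of largest change per list in RACVEC against MAC, Akt-RACVEC or Sox17-RACVEC against RACVEC, and Akt-liver EC against LSEC, plus Pdgfb. Likeness was ranked by Pearson correlation. Genes named for Akt-RACVEC against Akt-MAC lists, delivered factors and single marker genes were chosen after their values were seen. Members and lists were chosen with earlier results of these data known. Of the marker and pathway genes, 2 (Spry3 and Cd68) could not be matched. Alternatives were other pseudocounts, filters and scaling, separate transcripts, only the groups compared, a replicate block, the unadjusted criterion and leaving out libraries. Leaving out Akt-LEC 1 with Akt-liver EC 1, Akt-MAC 2 with Akt-MAC 3, pairing by file headers and the weight given to Sox17-RACVEC 2 were chosen after seeing the data. Replicate numbers were checked by correlating same-numbered deviations, and in no comparison were all 3 over 0.1.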

Additional observations from a re-analysis of the deposited data

How the results depend on the processing

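Of the 10 Pdgf and Fgf genes, the number called stayed at 0 under every alternative for Akt-MAC against MAC, Sox17-RACVEC against RACVEC, both Akt-LEC comparisons and the interaction. For RACVEC against MAC it was 0, but 2 by the unadjusted criterion (Fgfr1 and Fgfr2), and 0 to 1 with 1 library left out (1, Fgfr3, without MAC 2). For Akt-RACVEC against RACVEC the unadjusted criterion gave 1 (Pdgfa). For Akt-RACVEC against Akt-MAC it was 2, but 0 with a replicate block, 1 by the unadjusted criterion (Fgf2), 1 without Akt-MAC 2 and Akt-MAC 3 (Fgfr2; this leaves 1 Akt-MAC library, assumed to vary like the other groups), 3 with transcripts kept apart (Fgfr1 added), and 1 to 2 with 1 library left out (1 without Akt-MAC 2, Akt-RACVEC 2 or Akt-RACVEC 3; without Akt-MAC 1, Fgfr3 in place of Fgf2). For Akt-liver EC against LSEC it was 2, but 1 (Fgfr1) with a pseudocount of 0.1, 1 with a mean of at least 10 FPKM, a filter that removes Fgfr3, 1 without Akt-LEC 1 and Akt-liver EC 1, 3 with only the groups compared, with or without the replicate block (Pdgfd added), 2 by the unadjusted criterion but with Pdgfd in place of Fgfr1, and 1 to 2 with 1 library left out (2 only without Akt-liver EC 1). The cause of the other shifts was not tested. Adjusted p over the alternatives ran from 0.0206 to 0.191 for Fgf2 and 0.00129 to 0.109 for Fgfr2 (Akt-RACVEC against Akt-MAC), and from 5.10e-05 to 0.0278 for Fgfr1 and 0.00365 to 0.0890 for Fgfr3 (Akt-liver EC against LSEC). No direction turned among the 17 gene and comparison values that passed an unadjusted p below 0.05, while directions of values that missed it did turn when libraries were left out.

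Same-numbered libraries did not deviate together throughout. For Akt-LEC against Akt-liver EC the correlations of their deviations were 0.571, 0.366 and -0.0499 for numbers 1, 2 and 3. For Akt-LEC against Akt-RACVEC they were 0.415, -0.165 and 0.179. Whether a number marks a shared preparation was not tested. With the replicate block, 0 of all genes were called between RACVEC and MAC (smallest adjusted p 0.262) and between Akt-RACVEC and Akt-MAC (0.0810), and 0 with the 2 pairs named in the file headers (0.631). Scaling each library by its median shift, whose group means ran from -0.211 in MAC to -0.100 in Akt-MAC on the log2 scale, left the counts of called members as they were. The unknown depth limits the reading of values near 0.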
